A study of Drosophila melanogaster with 6 samples.

Results

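The cytochrome P450 genes of the Drosophila midgut were followed in *Apc1* mutant and wild-type females. They were taken as every gene whose deposited symbol has the form Cyp, a family number, a subfamily letter and a gene number, as in *Cyp6a2*. This gave 78 genes among the 12998 gene entries of the array, and 3 of the 78 were covered by more than 1 probe set. The mutant samples were whole midguts of 7-day-old adult females homozygous for *Apc1Q8*, a null allele of the tumor suppressor *Apc1* carried in every cell of the fly, and the controls were whole midguts of wild-type females of the same age, with 3 samples of each genotype. Each sample was a pool of dissected midguts, hybridized to 1 Affymetrix Drosophila Genome 2.0 array. The sources give the wild-type strain differently, as Canton S in the methods and as w1118 in the deposited description, so the mutation and the strain background cannot be told apart. No source says that the 3 samples of a genotype came from separate cultures, so p-values measure the spread between these samples, which may be technical.

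P450 enzymes are haem proteins of the endoplasmic reticulum or the mitochondrion that insert an oxygen atom into small molecules. They take the electrons for this from a redox partner, which is the P450 reductase Cpr in the endoplasmic reticulum and a ferredoxin with its reductase in the mitochondrion. In insects the family divides into the CYP2, CYP3, CYP4 and mitochondrial clans. The CYP3 clan holds many enzymes that oxidize plant toxins and insecticides, the CYP4 clan is known for acting on fatty acids and hydrocarbons, and members of the CYP2 and mitochondrial clans make or break down the molting hormone ecdysone. The midgut, the Malpighian tubules and the fat body are the tissues in which insects mostly break down foreign compounds, and enterocytes meet such compounds first.

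Values are RMA log2 values, that is, probe set intensities made comparable between arrays by robust multi-array averaging, and differences are mutant minus wild type on this log2 scale. Arrays of 1 genotype correlated at 0.982 to 0.992 across gene entries, which are not independent replicates, and arrays of different genotypes at 0.949 to 0.961. The transcript of *Apc1* itself, listed as *Apc*, was 6.49 ± 0.41 in mutants and 6.36 ± 0.41 in wild type (SD, n = 3 each), so its level does not check the labels. Markers of the cell types of the gut are given beside the 14.1% of all entries that passed. Of the enterocyte markers 3 of 5 fell, all of them digestive enzymes, among them *betaTry*, a trypsin, at 9.47 in mutants and 11.51 in wild type. The others, *Myo31DF* and *nub*, did not pass, and their values were higher in mutants without overlap, by 0.47 and 0.53 (limma adjusted p = 0.0593 and 0.0793). Progenitor markers rose in 3 of 4 cases. Of 4 enteroendocrine markers, *pros* and *Tk* rose by 1.32 and 0.99 and *NPF* fell by 1.78. Of 4 visceral muscle markers, *Mlc2* alone passed and fell by 0.96. *lab* and *Ptx1*, 2 of the 3 markers of the acid-secreting copper cell region, fell by 4.46 and 1.93. In whole-tissue RNA, fewer cells of a type and less RNA per cell cannot be told apart. None of the 5 Malpighian tubule, 5 fat body and 4 ovary markers passed the test, but wild-type replicate 2 stood apart in many of them. It had 7.79 for *Uro*, 11.01 for *Yp1* and 6.33 for *osk*, the highest value of all arrays for each. Its values for *CapaR*, *Fbp1* and *Cp36*, at 1.71, 1.44 and 2.22, were not the highest. The sum of the fat body markers, taken back from log2 to intensity, was between 126 and 807 in mutants and between 798 and 2662 in wild type, and that of the ovary markers was between 15.7 and 18.3 in mutants and between 17.1 and 165 in wild type. The tubule markers summed to between 138 and 249 in mutants and between 173 and 438 in wild type. The fat body markers *Lsp2*, *Lsp1beta* and *Fbp1* and all 3 hindgut markers lay under the median level of all entries in both genotypes. The part of these marker differences in the Cyp values was not tested.

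In *Apc1* mutant midguts, 26 of the 78 Cyp genes (33.3%) differed from wild type at an adjusted p under 0.05 (limma, Benjamini-Hochberg adjustment over all entries), where 14.1% of all entries did. Of these, 11 were higher in mutants (14.1% of the Cyp genes, against 8.8% of all entries) and 15 were lower (19.2%, against 5.32% of all entries). With a change of more than 2-fold as a second condition, 23 remained, which is 29.5% of the Cyp genes against 6.24% of all entries. They were 8 higher genes, where 3.21% of all entries were higher by this rule, and 15 lower genes, where 3.03% were lower. The median absolute difference was 0.38 for the Cyp genes and 0.22 for all entries, whereas the median signed difference was -0.09 and 0.01. The values of the genotypes did not overlap in 34 Cyp genes (43.6%), 14 higher and 20 lower in mutants, where 35.0% of all entries did not overlap. The count at an adjusted p under 0.05 was 17 without *Apc1* mutant replicate 3, where 7.09% of all entries passed. It was 25 without wild-type replicate 2, of which 24 were among the 26, where 11.7% of all entries passed. At this threshold, the 11 increases became 7, 7 and 6 without mutant replicates 1, 2 and 3, where 8.13%, 8.43% and 7.09% of all entries passed. Over 2-fold, the count was 15 without *Apc1* mutant replicate 1, and the 8 increases became 6, 6 and 5 without mutant replicates 1, 2 and 3.

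**Figure D1:**
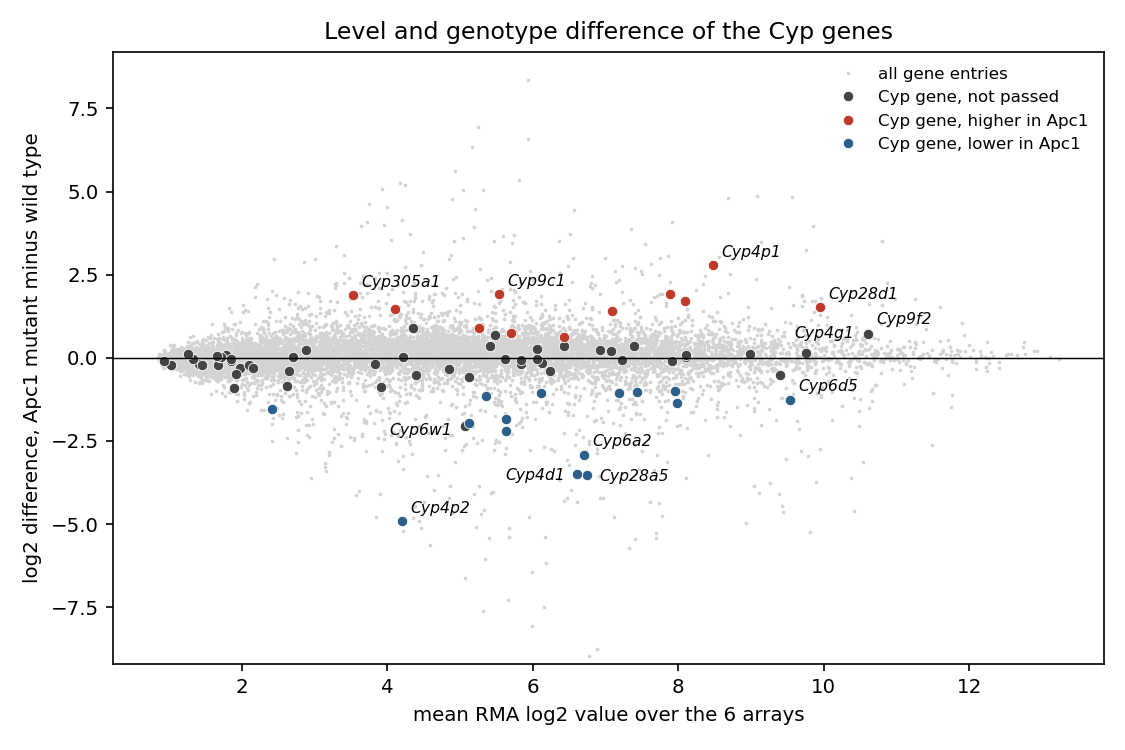
Log2 difference between *Apc1* mutant and wild-type midguts (vertical axis) against the mean RMA log2 value over the 6 arrays (horizontal axis) for all 12998 gene entries (grey) and the 78 Cyp genes (large points, colored by the limma call). The Cyp genes that passed reach from -4.92 for *Cyp4p2* to 2.78 for *Cyp4p1*, and most of those with a mean under 3 lie near 0.

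The Cyp genes ranged over the whole scale of the array. Their means were between 0.88 and 10.97 in mutants and between 0.99 and 10.26 in wild type. Probe sets differ in how well they bind, so these levels place a gene within the array and do not rank Cyp transcripts by abundance. The upper quartile of all entries, 6.11, was exceeded by 25 Cyp genes in mutants and by 31 in wild type, and 22 exceeded it in both. The 3 that did so in mutants alone were *Cyp6a9*, *Cyp9c1* and *Cyp49a1*, and the 9 that did so in wild type alone were *Cyp28a5*, *Cyp4d1*, *Cyp4d14*, *Cyp4e1*, *Cyp4p2*, *Cyp4s3*, *Cyp6a2*, *Cyp6d2* and *Cyp6t1*. Among them *Cyp49a1*, *Cyp4s3* and *Cyp6d2* did not pass, and their means only lay on either side of this level. They differed by 0.27, -0.40 and -0.15 (limma adjusted p = 0.742, 0.739 and 0.720). Another 24 Cyp genes were under the median of all entries, 3.81, in both genotypes, and 1 of them passed, *Cyp311a1*. They include *Cyp18a1*, which inactivates ecdysone, *Cyp303a1*, which is needed for sensory bristles, *Cyp4d21*, a gene of male mating behavior, and 5 of the 6 members of the Cyp313 family. Among the 53 Cyp genes with a mean at or above the median, 24 passed (45.3%), where 22.6% of all entries in this range did.

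The 10 Cyp genes with the highest means over the 6 arrays were *Cyp9f2*, *Cyp28d1*, *Cyp4g1*, *Cyp6d5*, *Cyp12a4*, *Cyp9b2*, *Cyp4p1*, *Cyp6d4*, *Cyp4ac1* and *Cyp4ac3*, and 4 of them passed. *Cyp9f2* was at 11.07, 10.92 and 10.91 in mutants and at 10.59, 9.85 and 10.34 in wild type. These groups do not overlap, and the difference of 0.71 with a standard error of 0.20 narrowly missed the threshold (limma adjusted p = 0.056), with values between 0.034 and 0.161 when 1 array was left out. *Cyp12a4*, known for resistance to the insecticide lufenuron, was 9.15 ± 0.13 in mutants and 9.66 ± 0.31 in wild type (SD, n = 3 each), a difference of -0.51 that did not pass (limma adjusted p = 0.108), although it did without wild-type replicate 2 (-0.67, limma adjusted p = 0.0353). *Cyp9b2*, *Cyp6d4* and *Cyp4ac1* differed by 0.12, 0.09 and 0.01, and their 95% intervals stayed between -0.36 and 0.60.

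**Figure D2:**
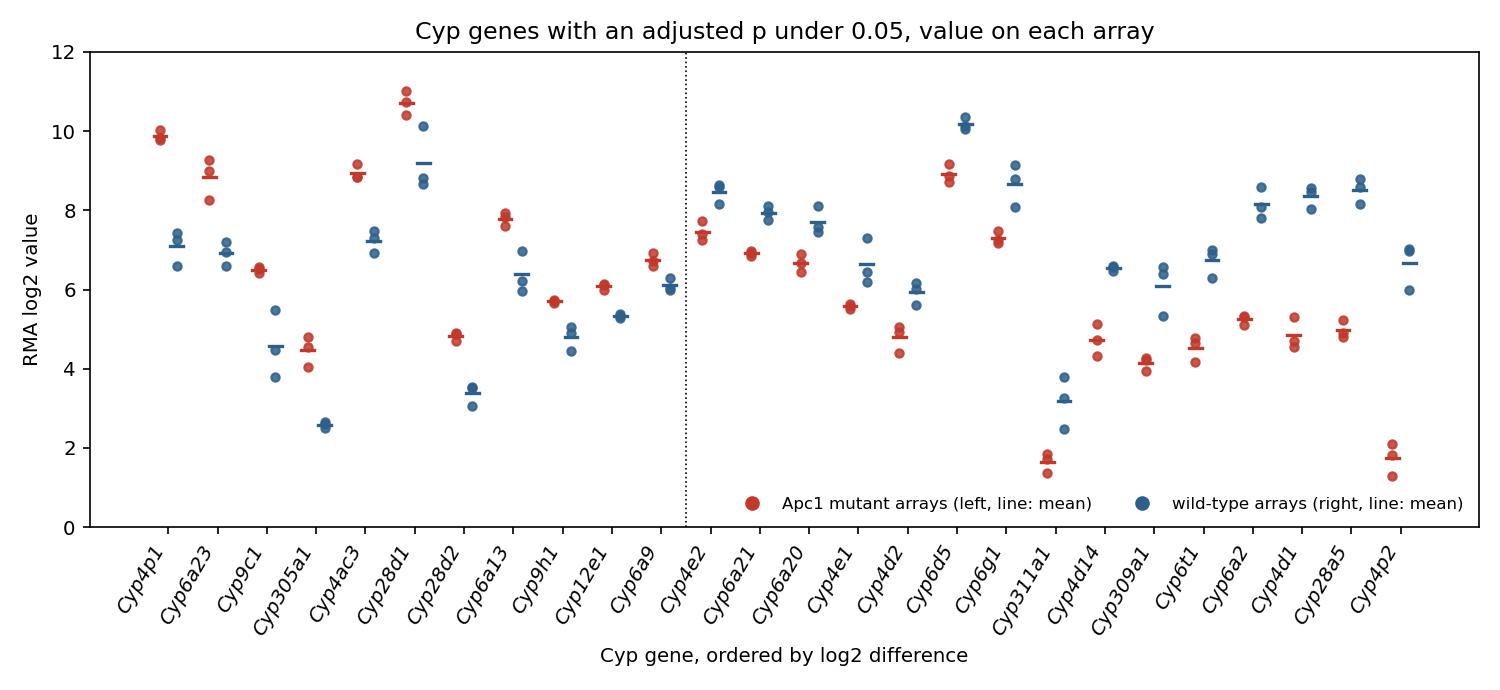
RMA log2 value (vertical axis) on each array for the 26 Cyp genes with an adjusted p under 0.05, ordered by their log2 difference, with *Apc1* mutant arrays in red on the left and wild-type arrays in blue on the right of each gene, and lines at the means. Left of the dotted line are the 11 genes higher in mutants and right of it the 15 genes lower in mutants, and for none of them do the 2 sets of points overlap.

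Most of the changed genes belonged to the CYP3 clan, which is also the largest, with 35 of the 78 Cyp genes. Of these 35 genes 15 passed, 7 higher and 8 lower in mutants, where 26 of all 78 Cyp genes passed. Among all entries 14.1% passed, 8.8% higher and 5.32% lower. The Cyp6 family of this clan had 21 members, of which 3 rose and 6 fell. The largest fall in this family was that of *Cyp6a2* (CG9438), an enzyme that metabolizes DDT and is overproduced in resistant strains. It was at 5.31, 5.32 and 5.10 in mutants, against 7.81, 8.08 and 8.58 in wild type. All mutant arrays lay well below all wild-type arrays, and the difference of -2.91 with a standard error of 0.20 is 7.54-fold (limma adjusted p = 0.000236). *Cyp6t1*, on the X chromosome, was at 4.77, 4.16 and 4.65 in mutants, against 6.30, 7.01 and 6.90 in wild type, and fell by 2.21 (limma adjusted p = 0.00158). *Cyp6g1*, the gene whose overexpression gives many field strains resistance to DDT and imidacloprid, was at 7.48, 7.18 and 7.25 in mutants, against 8.78, 8.08 and 9.14 in wild type. It fell by 1.37 (limma adjusted p = 0.0163), with a wider spread in wild type, and missed the threshold without mutant replicate 2 or 3 or wild-type replicate 1 (limma adjusted p between 0.0526 and 0.0673). *Cyp6d5*, among the brightest of the Cyp genes, fell by 1.26 to 8.91 ± 0.24 in mutants, against 10.17 ± 0.16 in wild type (limma adjusted p = 0.00309).

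Within the Cyp6a subfamily, changes ran both ways. Of its 11 genes, 3 rose (*Cyp6a23*, *Cyp6a13* and *Cyp6a9*) and 3 fell (*Cyp6a2*, *Cyp6a20* and *Cyp6a21*). *Cyp6a23* was at 9.00, 8.27 and 9.26 in mutants, against 6.96, 6.60 and 7.21 in wild type, a rise of 1.92 (limma adjusted p = 0.00535). *Cyp6a13* rose by 1.40 to 7.79 ± 0.16 in mutants, against 6.39 ± 0.53 in wild type (SD, n = 3 each, limma adjusted p = 0.0142), but not without mutant replicate 3 (limma adjusted p = 0.0633). *Cyp6a9* rose by 0.64 (limma adjusted p = 0.0279), the smallest change to pass among the Cyp genes, and was lost with any 1 array left out other than wild-type replicate 3 (limma adjusted p between 0.0564 and 0.094) and after centring on the array medians (limma adjusted p = 0.0645). *Cyp6a20*, known from its effect on male aggression, and *Cyp6a21* fell by 1.05 and 1.02 (limma adjusted p = 0.0172 and 0.00307). *Cyp6a20* missed the threshold without mutant replicate 1 or 3 (limma adjusted p up to 0.0667). *Cyp6a17*, a gene of temperature preference, was 7.87 ± 0.31 in mutants and 7.96 ± 0.59 in wild type, a difference of -0.09.

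*Cyp6w1* showed the largest difference among the genes that did not pass. It was at 4.43, 3.59 and 4.08 in mutants, against 4.71, 6.89 and 6.68 in wild type. The genotypes did not overlap, but wild-type replicate 1 lay close to the mutants, and the difference of -2.06 had a standard error of 0.56 (limma adjusted p = 0.0529). Without that array it was -2.75 (limma adjusted p = 0.00272).

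The Cyp9 and Cyp28 families of the same clan had few members, with differences between -0.05 and 1.91 and between -3.53 and 1.52. In the Cyp9 family, 2 of 5 genes rose and none fell. *Cyp9c1* was at 6.51, 6.56 and 6.41 in mutants, against 4.47, 3.80 and 5.48 in wild type. The mutant arrays agree within 0.08 (SD) while wild type spread by 0.84 (SD), and the rise of 1.91 (limma adjusted p = 0.0187) was lost without any one of the mutant arrays or without wild-type replicate 1 (limma adjusted p between 0.0584 and 0.0666). *Cyp9h1* rose by 0.90 to 5.70 ± 0.03 in mutants, against 4.80 ± 0.32 in wild type (SD, n = 3 each, limma adjusted p = 0.0158), and was lost without any one of the mutant arrays (limma adjusted p up to 0.059). In the Cyp28 family, whose members are known to respond to plant alkaloids in other Drosophila species, *Cyp28a5* fell and *Cyp28d1* and *Cyp28d2* rose. *Cyp28a5* (CG8864) was at 4.81, 4.91 and 5.23 in mutants, against 8.80, 8.15 and 8.59 in wild type, and fell by 3.53 or 11.6-fold (limma adjusted p = 0.000102). *Cyp28d1* was at 10.74, 11.00 and 10.40 in mutants, against 8.66, 8.82 and 10.12 in wild type. Wild-type replicate 3 was close to the mutant arrays, and the rise of 1.52 (limma adjusted p = 0.0423) passed in just 1 of the 6 fits with an array left out, that without wild-type replicate 3 (1.97, limma adjusted p = 0.00383). It also missed the threshold with eBayes run with trend and robust estimation (limma adjusted p = 0.0512). *Cyp28d2* was dimmer, at 4.91, 4.88 and 4.71 in mutants, against 3.06, 3.52 and 3.55 in wild type, and rose by 1.46 (limma adjusted p = 0.00176). *Cyp309a1* was 4.15 ± 0.17 in mutants and 6.09 ± 0.68 in wild type (SD, n = 3 each), and fell by 1.95 (limma adjusted p = 0.00891).

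In the CYP4 clan, more genes fell than rose. Of its 32 genes 2 rose (6.25%, against 8.8% of all entries) and 7 fell (21.9%, against 5.32% of all entries). A difference below 0 was found in 22 of the 32 genes, and in 6333 of all 12998 entries. The Cyp4p genes spanned the full range seen among the Cyp genes. *Cyp4p2* (CG1944) was at 1.30, 2.09 and 1.83 in mutants, against 7.02, 5.98 and 6.98 in wild type. Its difference of -4.92 with a standard error of 0.32 is 30.3-fold (limma adjusted p = 0.00019), and since the mutant values lie at the low end of the scale, the size of this fold depends on the background correction. *Cyp4p1* (CG10842) was at 9.82, 9.77 and 10.04 in mutants, against 7.42, 6.60 and 7.26 in wild type, a rise of 2.78 or 6.88-fold (limma adjusted p = 0.000398). *Cyp4p3* was 5.58 ± 0.61 in mutants and 5.23 ± 0.40 in wild type (SD, n = 3 each), a difference of 0.35 with a 95% interval between -0.43 and 1.13.

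In the Cyp4d subfamily, 3 of 6 genes fell and none rose. *Cyp4d1* (CG3656) was at 5.31, 4.55 and 4.70 in mutants, against 8.45, 8.56 and 8.04 in wild type, and fell by 3.50 or 11.3-fold (limma adjusted p = 0.000209). *Cyp4d14* fell by 1.83 and *Cyp4d2* by 1.14 (limma adjusted p = 0.00185 and 0.0168), and *Cyp4d2* missed the threshold without wild-type replicate 3 (limma adjusted p = 0.0517). In the Cyp4e subfamily, *Cyp4e1* fell by 1.06 and *Cyp4e2* by 1.01 (limma adjusted p = 0.043 and 0.014). *Cyp4e1* was lost without any one of the mutant arrays or without wild-type replicate 1 (limma adjusted p up to 0.122), and *Cyp4e2* without mutant replicate 1 (limma adjusted p = 0.0548). The other increase in the clan was that of *Cyp4ac3*, at 8.84, 8.85 and 9.16 in mutants, against 6.92, 7.30 and 7.49 in wild type, a rise of 1.71 (limma adjusted p = 0.00134). *Cyp311a1*, a gene of the larval anterior midgut, was dim and fell by 1.53 to 1.65 ± 0.26 in mutants, against 3.18 ± 0.65 in wild type (SD, n = 3 each, limma adjusted p = 0.0218). It was lost without any one of the mutant arrays or without wild-type replicate 1 (limma adjusted p between 0.0536 and 0.0735).

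In the mitochondrial clan, 1 of 7 genes passed. *Cyp12e1* was at 6.12, 6.13 and 5.99 in mutants, against 5.37, 5.27 and 5.33 in wild type. The spread within each genotype was among the narrowest of the Cyp genes that passed, and the rise of 0.76, or 1.69-fold (limma adjusted p = 0.00466), also passed with each array left out. The dimmer probe set of *Cyp12e1* had a difference of 0.51 and did not pass among all probe sets (limma adjusted p = 0.0704). In the CYP2 clan, 1 of 4 genes passed (25%, against 14.1% of all entries). *Cyp305a1* was at 4.55, 4.04 and 4.80 in mutants, against 2.50, 2.60 and 2.65 in wild type, a rise of 1.88 or 3.69-fold (limma adjusted p = 0.00143). It lay under the median of all entries in wild type and above it in mutants.

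Many Cyp genes lie side by side, some of them as tandem copies. In the RefSeq annotation of Release 6 plus ISO1 MT, 42 of the 78 genes fell into 14 runs in which at most 2 protein-coding genes separate neighbours. Runs were set by position alone, and some join genes of different families, such as *Cyp18a1* and *Cyp308a1*. Of the 42 genes in runs 17 passed, where 26 of all 78 Cyp genes and 14.1% of all entries did. Of the 28 pairs of neighbours in these runs, both genes passed in the same direction in 5 and in opposite directions in 2. In 11 pairs 1 gene passed, and in 10 neither did. How many pairs of each kind these shares alone would give was not computed. Opposite directions were found in the run *Cyp4p2*, *Cyp4p1*, *Cyp4p3* on chromosome arm 2R, where the gene with the largest fall adjoins the one with the largest rise among the Cyp genes. They were found again in the longest run, 9 genes on 2R. In its order, *Cyp6a23* and *Cyp6a9* rose, the adjoining *Cyp6a20* and *Cyp6a21* fell, and *Cyp6a22*, *Cyp6a17*, *Cyp6a19*, *Cyp6a8* and *Cyp317a1* did not pass. *Cyp317a1*, the last of them, was 5.83 ± 0.09 in mutants and 5.12 ± 0.39 in wild type and narrowly missed the threshold (0.70, limma adjusted p = 0.0586).

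Other runs moved one way. *Cyp4d1*, *Cyp4d14* and *Cyp4d2* on the X chromosome fell, with smaller changes further along the run, and the fourth gene, *Cyp4ae1*, was 7.20 ± 0.11 in mutants and 7.27 ± 0.07 in wild type (SD, n = 3 each), with a 95% interval of the difference between -0.34 and 0.20. *Cyp28d2* and *Cyp28d1* on 2L rose together. Of *Cyp4ac1*, *Cyp4ac2* and *Cyp4ac3* on 2L, the last alone passed. Related copies can bind in part to the same probes. All 81 Cyp probe sets carry a single gene symbol in the deposited table, but binding between copies was not tested. By chromosome, 13 of 31 genes passed on 2R, 5 of 12 on 2L and 5 of 14 on the X, where all 5 were lower. On 3L 1 of 6 passed (16.7%), and on 3R, the arm that carries *Apc1*, 2 of 15 did (13.3%). These 2 shares are near the 14.1% of all entries that passed. Of all entries 5.32% were lower in mutants, and the share of all entries on each arm was not computed. The 2 on 3R, *Cyp12e1* and *Cyp6d5*, lie 1574 and 1243 places from *Apc1* among the protein-coding genes of that arm on the array.

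**Figure D3:**
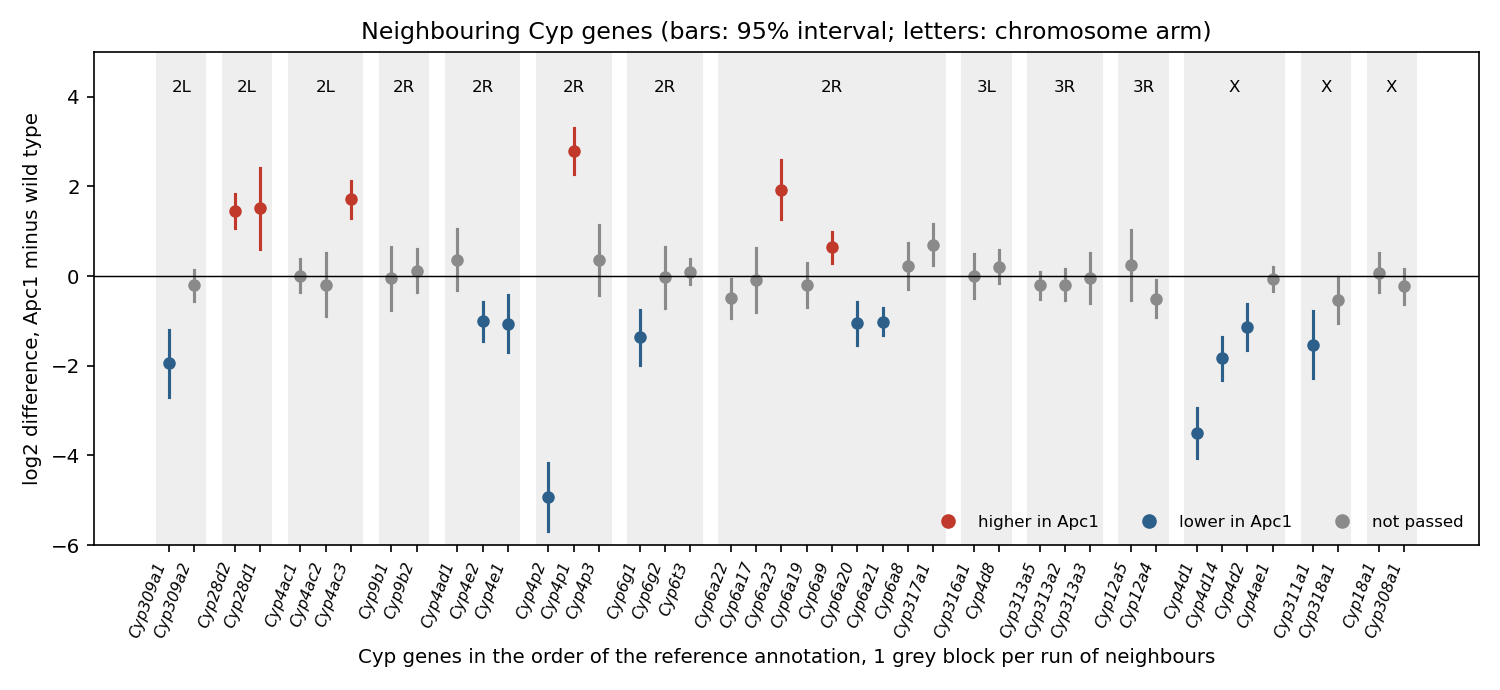
Log2 difference between *Apc1* mutant and wild-type midguts (vertical axis) with its 95% interval for the 42 Cyp genes that lie in runs of neighbours, in annotation order along the horizontal axis, each run in 1 grey block under its chromosome arm. *Cyp4p2* at -4.92 stands next to *Cyp4p1* at 2.78, and *Cyp4d1*, *Cyp4d14* and *Cyp4d2* lie at -3.50, -1.83 and -1.14.

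Genes that supply P450 enzymes with electrons and haem were examined next. These and the lists after them stand beside the 14.1% of all entries that passed. Among 6 redox partners 1 passed, *Cpr*, which fell by 0.44, at 9.55, 9.41 and 9.51 in mutants, against 9.89, 9.96 and 9.94 in wild type (limma adjusted p = 0.0341). The genotypes do not overlap, but the call was lost in all 6 fits with 1 array left out (limma adjusted p between 0.0662 and 0.119). *Cyt-b5*, an alternative electron donor, was 9.92 ± 0.14 in mutants and 10.24 ± 0.06 in wild type and did not pass (limma adjusted p = 0.134). *Cyt-b5-r*, which reduces cytochrome b5, differed by 0.16. The ferredoxins and ferredoxin reductase that serve mitochondrial P450 enzymes, *Fdx1*, *Fdx2* and *dare*, differed by 0.34, -0.23 and 0.08, and none passed. Of 8 genes of haem synthesis 2 passed, both lower. *Pbgs*, which makes porphobilinogen, was at 5.34, 5.36 and 5.31 in mutants, against 7.00, 6.54 and 6.45 in wild type, and fell by 1.33 (limma adjusted p = 0.00267). The gene of hydroxymethylbilane synthase, the following enzyme, fell by 0.64 (limma adjusted p = 0.0291) and was lost with any 1 array left out other than wild-type replicate 2 (limma adjusted p up to 0.106). *Alas*, the first enzyme of the pathway, differed by -0.55 and narrowly missed the threshold (limma adjusted p = 0.0615), and *CG1885*, *Updo*, *Coprox*, *Ppox* and *ferrochelatase* lay between -0.35 and 0.23.

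Of the 6 P450 genes of ecdysone synthesis that go by other symbols, *phm*, *dib*, *sad*, *spo* and *spok* lay under the median of all entries in both genotypes, and none of them passed. The last step, which turns ecdysone into its active form in the tissues that respond to it, is made by *shd*. It was at 3.33, 2.50 and 2.41 in mutants, against 5.04, 6.07 and 5.96 in wild type, and fell by 2.94 (limma adjusted p = 0.00228), a difference that passed with each array left out. With the mean of its probe sets in place of the brightest, the difference was -1.70 (limma adjusted p = 0.0012). Among 6 regulators of the response to foreign compounds, *cnc*, the transcription factor that drives detoxification genes, fell by 0.52, *Keap1*, which holds Cnc inactive, fell by 1.03, and *maf-S*, the partner of Cnc on DNA, rose by 0.45 (limma adjusted p = 0.0235, 0.0215 and 0.0424). Each of these 3 was lost without any one of the mutant arrays and without 1 or 2 of the wild-type arrays, at a limma adjusted p of up to 0.0853 for *cnc*, 0.0775 for *Keap1* and 0.13 for *maf-S*, and *maf-S* was lost also after centring on the array medians. The nuclear receptor gene *Hr96* and *ss* each differed by -0.02, and *tgo* by 0.26, and none passed.

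The conjugation and export genes that passed mostly fell, where 5.32% of all entries were lower in mutants and 8.8% were higher. Of 20 glutathione S-transferase genes, 6 fell and none rose, with a median difference of -0.68, and the largest falls were those of *GstD10*, by 2.41, and *GstD5*, by 2.00 (limma adjusted p = 0.00208 and 0.000264). Of 17 UDP-glycosyltransferase genes, 6 fell and 1 rose, with a median of -0.45. *Ugt35b* fell by 4.01, *Ugt86Dg* fell by 3.15 and *Ugt86Di* rose by 1.98 (limma adjusted p = 0.000325, 0.000385 and 0.000673). *Ugt35b* was at 1.6 in mutants and 5.61 in wild type, and *Ugt86Dg* at 1.57 and 4.72. *Ugt86Di* was at 3.76 in mutants and 1.78 in wild type, under the median of all entries in both. *GstD5* was at 1.97 in mutants and 3.97 in wild type. Each of these genes had a group mean under 3, where the background correction affects how large a change appears. Of 3 Mdr exporters, which pump such compounds out of cells, *Mdr50* was at 5.29, 3.11 and 4.90 in mutants, against 8.55, 8.73 and 9.07 in wild type, and fell by 4.35 (limma adjusted p = 0.00263). *Mdr49* and *Mdr65* differed by 0.19 and 0.16 and did not pass.

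**Figure D4:**
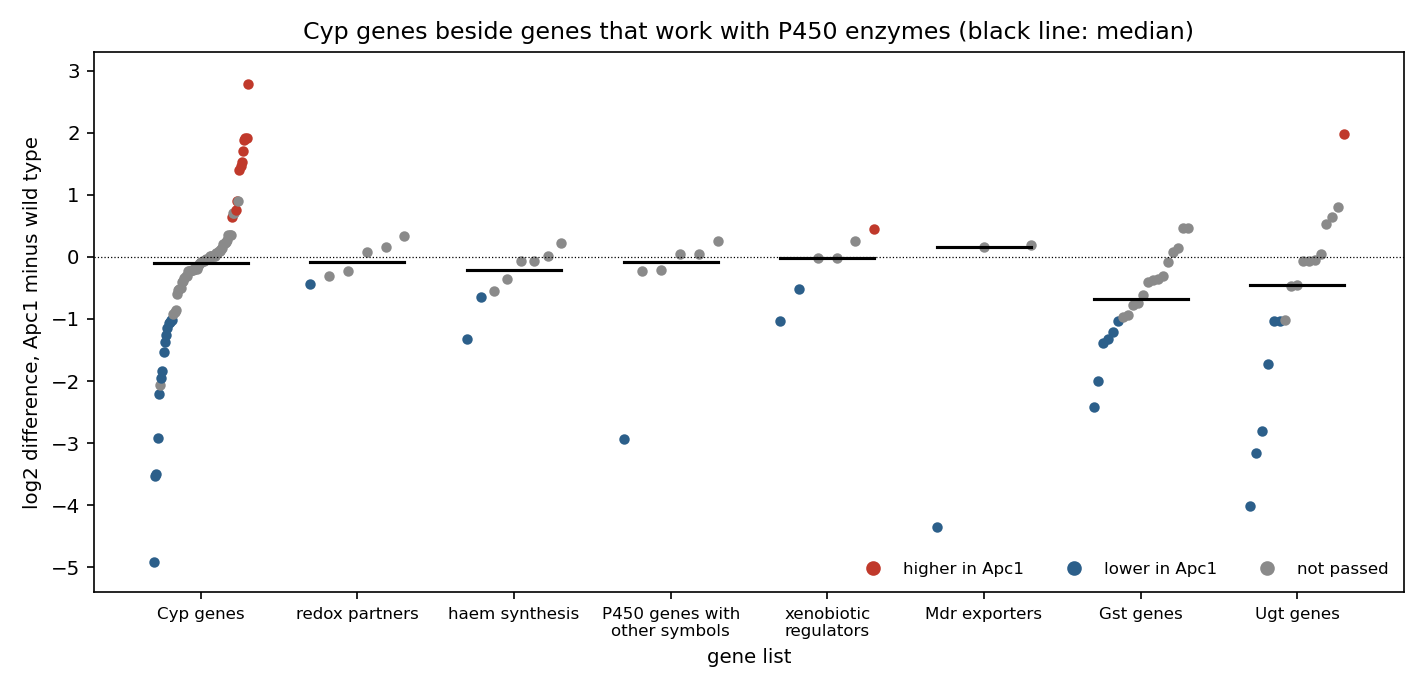
Log2 difference between *Apc1* mutant and wild-type midguts (vertical axis) for each gene of the 8 lists along the horizontal axis, colored by the limma call, with the median of each list as a black line. The Cyp genes spread on both sides of a median of -0.09, while the Gst and Ugt genes lie mainly below 0, with medians of -0.68 and -0.45.

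Among the 52 Cyp genes that did not pass, 37 had a 95% interval within 1 of 0. A change of more than 2-fold in the array value lies outside these intervals, and for the other 15 the arrays do not settle this. Of the 52, 23 lay under the median of all entries in both genotypes. At such low values a narrow interval does not exclude a change of the transcript. The spread between arrays of a genotype was wider in wild type for 56 of the 78 genes, as it was for 61.8% of all entries, with median SDs of 0.19 in mutants and 0.34 in wild type. In 4 genes, *Cyp4g1*, *Cyp4s3*, *Cyp6w1* and *Cyp4e3*, the wild-type SD exceeded 1. *Cyp4g1*, which makes cuticular hydrocarbons in the oenocytes, was at 10.22, 10.38 and 8.92 in mutants, against 8.14, 10.97 and 9.95 in wild type, and gave no difference that these arrays can settle (0.15, 95% interval -1.54 to 1.85). *Cyp4e3*, known from the Malpighian tubules, was at 2.86, 3.40 and 4.14 in mutants, against 3.08, 5.24 and 4.73 in wild type. Both were highest in wild-type replicate 2, the array with the highest *Uro*, *Yp1* and *osk* values, whose part in these levels was not tested. *Cyp4s3* did not follow that array. It was at 6.25, 5.30 and 6.57 in mutants, against 8.02, 5.74 and 5.56 in wild type, with wild-type replicate 1 apart from the others.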

How the data were processed

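RNA of whole midguts was hybridized to 6 arrays. The authors deposited log2 values, 1 per probe set and array, made from the scans by RMA normalization and log2 transformation. MAS5 is also named in the submitters' processing notes, and the background correction is not given in the sources used here. The authors' own comparison columns (fold changes and p-values) and group summaries were not used. Of 18952 probe sets, 183 Affymetrix controls and 4331 without a gene symbol were left out. The other 14438 made 12998 gene entries, each read from the brightest of its probe sets by mean over the 6 arrays. Array medians of the entries were between 3.65 and 3.87. The number of arrays limits the precision, and the smallest p of an exact permutation test with 3 arrays a genotype is 0.1.

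The genotypes were compared with limma 3.58.1 in R 4.3.3 (lmFit, eBayes), with Benjamini-Hochberg adjustment over all entries, after a test on simulated data. Intervals are limma's 95% intervals. Tables and plots were made with Python 3.11.15, pandas 2.3.3 and matplotlib 3.10.9. Genes named are all Cyp genes with an adjusted p under 0.05, those over 2-fold without overlap, the 10 with the highest mean, and the context lists. Every other Cyp gene described, such as *Cyp4p3*, *Cyp4ae1*, *Cyp6a17*, *Cyp317a1*, *Cyp4e3*, *Cyp4s3*, *Cyp49a1* and *Cyp6d2*, was named after its values were seen. Members and lists were chosen with earlier results of these data known. Symbols such as *Cyp12d1-d* fall outside the rule and were not used here, nor was *Amy-p*, a marker matched to no entry.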

Additional observations from a re-analysis of the deposited data

How the results depend on the processing

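Leaving out 1 array at a time gave between 17 and 26 Cyp genes at an adjusted p under 0.05 (6 to 12 higher, 11 to 16 lower) and between 15 and 21 over 2-fold (5 to 8 higher, 9 to 14 lower). Of the 26 genes, 15 passed in all 6 of these fits. At an adjusted p under 0.01, 15 passed (6 higher, 9 lower), and 14 over 2-fold (5 higher, 9 lower). With probe set means, every probe set, median centring, quantile normalization, trend and robust estimation or array weights, the count was between 26 and 28. Leaving out means under 5 kept 45 Cyp genes, of which 25 passed, beside 30.6% of the entries kept. Leaving out means under the median kept 53, of which 27 passed, beside 27.9%. These filters kept 22 and 24 of the 26 genes, all of which passed, and *Cyp317a1*, *Cyp6w1* and *Cyp9f2* passed in addition. The pairing of replicate numbers was checked, since both genotypes are numbered 1 to 3. Deviations of same-numbered arrays correlated at 0.144, 0.199 and 0.0157, and not every array correlated best with its own number. With the replicate number as a block, 28 Cyp genes passed, 24 of them among the 26, beside 12.2% of all entries. *Cyp28d1* and *Cyp6a9* were lost (limma adjusted p = 0.0658 and 0.0603). No Cyp probe set matches several genes, so leaving such probe sets out could not be run as an alternative.

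Median centring shifted the median of all entries by -0.12 and that of the Cyp genes to -0.21, which was between -0.19 and -0.06 with 1 array left out. It turned *Cyp4ac1* to -0.11 and *Cyp6d4* to -0.03. With 1 array left out, *Cyp4ac1* was between -0.12 and 0.12, *Cyp6d4* between -0.08 and 0.26, *Cyp4g1* between -0.62 and 0.80 and *Cyp9b2* between -0.03 and 0.32. The cause of these shifts was not tested. None of the 26 genes changed sign under any of these alternatives. Values near the low end of the scale limit the size of folds, as in the 3 of the 26 genes with a group mean under 3.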
